A study of Homo sapiens with 18 samples.

Results

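The 10 genes described here encode the switch of the integrated stress response: the 4 kinases that phosphorylate the alpha subunit of translation initiation factor eIF2 (EIF2AK1 to EIF2AK4), eIF2 alpha itself (EIF2S1), and the 5 subunits of eIF2B (EIF2B1 to EIF2B5), the factor that recharges eIF2 with GTP. They were chosen by symbol, and all 10 of 10 were found among the 26485 gene symbols counted. The poly(A) RNA came from BxPC3, Panc327 and SUIT2, 3 human cell lines of pancreatic ductal adenocarcinoma. Each line was treated for 6 h with 100 nM THZ1, a covalent inhibitor of the transcription kinase CDK7 that also binds CDK12 and CDK13, or with its DMSO control. Each of the 6 groups held 3 libraries. The series asks how the chromatin enzyme SIRT6 bears on this response and on survival when transcription is blocked, and no library here is labelled as changed in SIRT6. Whether the 3 libraries of a group were grown apart is not labelled, and a p-value here covers just the spread among them, which may be technical.

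Each eIF2 kinase senses a different stress. HRI (EIF2AK1) responds to low heme and to signals from damaged mitochondria, PKR (EIF2AK2) to double-stranded RNA, PERK (EIF2AK3) to unfolded protein in the endoplasmic reticulum, and GCN2 (EIF2AK4) to uncharged tRNA and stalled ribosomes. Phosphorylated eIF2 binds eIF2B and blocks its exchange activity, so that most translation slows while a few mRNAs, ATF4 among them, are translated more. The counts are of mRNA and measure neither kinase activity nor phosphorylation.

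The residue on which all 4 kinases converge is a serine of eIF2 alpha, number 51 when the initiator methionine is left out. It is codon 52 of the EIF2S1 transcript in GENCODE 29 when that methionine is counted as codon 1. The transcript encodes 314 residues with the methionine left out. Codons 44 to 59 are shown with the serine codon in capitals.

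EIF2S1 codons 44 to 59: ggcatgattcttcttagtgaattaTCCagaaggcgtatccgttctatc

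Of the 10 members, 9 had an entry in the RefSeq promoter table (GRCh38.p14), which covers 250 bases before and 50 bases after a gene's start. The windows of 4 members are shown because each holds 1 of the 3 less common motifs found beside its start. PKR is known as an interferon-induced gene. Capitals mark the interferon-stimulated response element core (GAAA, any 2 bases, GAAA) in EIF2AK2, the ETS motif (CCGGAAGT) in EIF2B1 and EIF2B2, and the NRF1 motif (GCGCATGC, or GCATGCGC on the other strand) in EIF2S1.

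EIF2AK2, chr2:37156973-37157036, minus strand: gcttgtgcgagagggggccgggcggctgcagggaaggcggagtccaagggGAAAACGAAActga
EIF2B1, chr12:123633672-123633733, minus strand: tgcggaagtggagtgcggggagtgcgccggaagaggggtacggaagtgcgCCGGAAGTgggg
EIF2B2, chr14:75002869-75002930, plus strand: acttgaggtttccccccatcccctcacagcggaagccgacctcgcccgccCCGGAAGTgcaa
EIF2S1, chr14:67360257-67360337, plus strand: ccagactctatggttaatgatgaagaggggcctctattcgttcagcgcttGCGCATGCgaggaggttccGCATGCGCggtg

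The interferon element began 6 bases before the EIF2AK2 start and ended at base 4 after it. Searched on both strands, it was found in 3.57% of 34796 promoter windows of 300 bases, and EIF2AK2 was the member that held it. The ETS motif was found in 4.13% of windows. Both copies lay within 11 bases of the start, from base 4 to base 11 in EIF2B1 and from 2 bases before to base 6 after in EIF2B2. The NRF1 motif was the rarest of these, in 2.99% of windows. EIF2S1 held 2 copies, from 21 to 14 bases before the start and from 2 bases before to base 6 after, and EIF2B5 held 1, from 107 to 100 bases before. Commoner motifs were the CCAAT box, in 5 of 9 members against 34.6% of windows, and the GC box GGGCGG, in 6 of 9 against 44.9%. Neither the C/EBP-ATF element TGATGNAA (3.63% of windows) nor TATAAA (11.6%) occurred in these letters in the members' windows. These matches describe letters and not binding.

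Gene counts per library ran from 5626146 to 8631273, and 14011 genes, all 10 members included, had enough counts to be tested. Levels are CPM, counts scaled to a common library total after TMM, which sets each library relative to the bulk of its genes; changes are log2 fold changes from edgeR, and a change was called at a Benjamini-Hochberg adjusted p under 0.05 over all genes tested. The share of records aligned to several places was 12% to 14.1% in the DMSO libraries and in SUIT2 with THZ1, with a mean of 22.8% in BxPC3 and 52.8% in Panc327 with THZ1. Its part in the changes below was not tested. The 6 ductal epithelial markers summed to 4683 to 10072 CPM per library, with a mean KRT7 level of 13.6 CPM and a mean CDH1 level of 27.3 CPM in the SUIT2 DMSO libraries. The DMSO means were 1546 and 678 CPM in BxPC3, and 995 and 625 CPM in Panc327. The 13 markers of other cell types summed to 22.3 to 51.8 CPM, and INS, GCG and DCN were at 0 in all 18 libraries. CD68 was the largest part of that sum in BxPC3 and SUIT2 and, with VWF, most of it in Panc327. CD68 was at 21.5 CPM with DMSO and 36.4 CPM with THZ1 in BxPC3, 9.30 and 22.9 CPM in Panc327, and 44.9 and 43.3 CPM in SUIT2. VWF in Panc327 was 12.5 CPM with DMSO and 17.7 CPM with THZ1, a rise of 0.50 on the log2 scale (edgeR adjusted p = 4.72e-04). The part of these markers in the changes was not tested. In bulk RNA, fewer cells making a transcript and less of it per cell cannot be told apart.

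In BxPC3 and in Panc327, the direction of the THZ1 change in mRNA differed between kinases. HRI rose to 1.40 times its DMSO level in BxPC3 and 1.47 times in Panc327, GCN2 fell in both, PERK fell in Panc327, and PKR fell slightly in BxPC3. Within eIF2B, the regulatory alpha subunit gene EIF2B1 rose and the catalytic epsilon subunit gene EIF2B5 and the delta subunit gene EIF2B4 fell in both lines. EIF2S1 was not called in any line. In SUIT2, GCN2 was the 1 member called. These changes are relative to the bulk of genes, and on the scale of library size alone the falls were larger and most of the rises were not called.

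In BxPC3, 3 of 10 members rose and 4 fell, against 69.4% of all genes tested called in either direction (35.2% higher and 34.1% lower). In Panc327, 2 rose and 4 fell, against 73.4% called (35.6% higher and 37.8% lower). In SUIT2, 0 rose and 1 fell, against 14.6% called (6.95% higher and 7.64% lower). By library size alone, without TMM, 6 of 10 members were called in BxPC3, 9 in Panc327 and 1 in SUIT2. Beside them, 9710, 10212 and 1933 of 14011 genes were called on that scale. With no filter on low counts, 8 members were called in Panc327, beside 10566 genes of a larger set. On the TMM scale, the share of members called was near that of all genes in each line. The median change over the 10 members was -0.07, -0.14 and -0.00075, beside 0, -0.014 and 0.0073 over all genes. The DMSO and THZ1 libraries did not overlap for 7 of 10 members in BxPC3 (71% of all genes), 7 in Panc327 (74.9%) and 2 in SUIT2 (28.1%). Members that fell in both BxPC3 and Panc327 were EIF2AK4, EIF2B4 and EIF2B5 (26.3% of all genes did so), those that rose in both were EIF2AK1 and EIF2B1 (26.1%), 0 rose in BxPC3 and fell in Panc327 (3.14%), and EIF2S1 and EIF2B3 were called in 0 lines (12.8%).

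**Figure D1:**
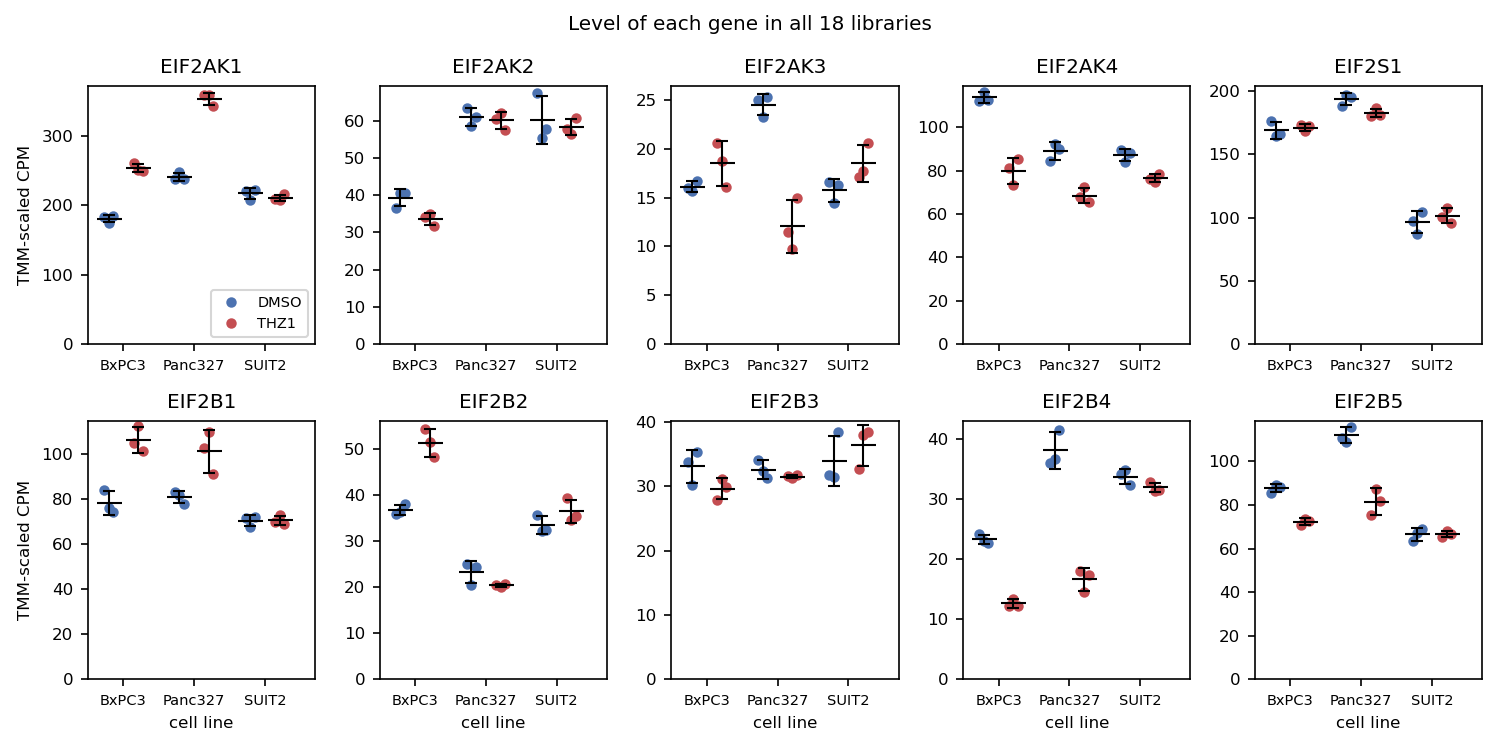
Level of each of the 10 genes in all 18 libraries, as TMM-scaled CPM on linear axes that start at 0. Points are libraries, blue for DMSO and red for THZ1, and bars are the mean and SD of 3 libraries; EIF2AK1 rises and EIF2B4 falls in BxPC3 and Panc327 with no overlap of the groups, while the SUIT2 groups overlap for 8 of the 10 genes.

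EIF2AK1 (ENSG00000086232.12, chr7:6022244-6059230, minus strand), the heme-regulated kinase, stood at 183, 175 and 185 CPM in the BxPC3 DMSO libraries and at 260, 250 and 249 CPM with THZ1. In Panc327 it stood at 238, 247 and 238 CPM with DMSO and at 359, 358 and 343 CPM with THZ1. In both lines every THZ1 library lay above every DMSO library. The log2 fold change was 0.49 ± 0.04 (SE, edgeR adjusted p = 4.86e-17) in BxPC3 and 0.55 ± 0.04 (adjusted p = 3.56e-21) in Panc327. SUIT2 held 221, 208 and 223 CPM with DMSO and 209, 208 and 216 CPM with THZ1, groups that overlapped, with a log2 fold change of -0.04 ± 0.04 (edgeR adjusted p = 0.576).

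These rises are relative to the bulk of genes. Without composition scaling, by library size alone, the median of all genes moved to -0.35 in BxPC3 and -0.34 in Panc327, and the share of calls that were higher went from 50.8% to 26.8% and from 48.5% to 31.0%. On that scale EIF2AK1 was 0.09 in BxPC3 (edgeR adjusted p = 0.0635), no longer called, and 0.23 in Panc327 (adjusted p = 1.26e-06). Of the exon bases of EIF2AK1, 9.59% lie on the opposite strand of AIMP2 exons, and the strand setting of the counting is not given in the sources used here, so reads from there cannot be told apart.

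EIF2AK4 (ENSG00000128829.11, chr15:39934146-40035591, plus strand) encodes GCN2, the kinase of amino acid shortage. Its BxPC3 libraries held 112, 116 and 113 CPM with DMSO and 81.3, 73.4 and 85.2 CPM with THZ1. Those of Panc327 held 84.4, 92.5 and 89.8 CPM with DMSO and 67.7, 72.4 and 65.5 CPM with THZ1. SUIT2 had 89.4, 84.2 and 88.1 CPM with DMSO and 76.4, 74.9 and 78.6 CPM with THZ1. The groups did not overlap in any of the 3 lines.

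GCN2 mRNA fell by 0.51 ± 0.06 on the log2 scale in BxPC3 (SE, edgeR adjusted p = 1.45e-12), by 0.38 ± 0.06 in Panc327 (adjusted p = 1.46e-07) and by 0.19 ± 0.06 in SUIT2 (adjusted p = 0.0204). EIF2AK4 was -0.90 in BxPC3 and -0.70 in Panc327 by library size alone. A fall in all 3 lines was called for 4.32% of all genes, and EIF2AK4 was the 1 member among them. In SUIT2 the call was lost without DMSO library 1 (-0.17, edgeR adjusted p = 0.0762), DMSO library 3 (-0.18, adjusted p = 0.0678) or THZ1 library 2 (-0.17, adjusted p = 0.0768).

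EIF2AK3 (ENSG00000172071.11, chr2:88556741-88627576, minus strand), which encodes PERK, was counted with 47 to 232 reads per library. In Panc327 it stood at 24.9, 23.3 and 25.3 CPM with DMSO and at 11.5, 9.72 and 14.99 CPM with THZ1. The groups were well apart, and the log2 fold change was -1.02 ± 0.12 (SE, edgeR adjusted p = 4.71e-12). Of all genes tested in Panc327, 19.96% had a log2 fold change at or below this value.

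The other lines did not show this fall in PERK mRNA. EIF2AK3 was 15.9, 15.7 and 16.7 CPM with DMSO and 20.6, 18.7 and 16.1 CPM with THZ1 in BxPC3, where the groups overlapped (0.19 ± 0.12, edgeR adjusted p = 0.144). In SUIT2 it was 16.6, 14.4 and 16.2 CPM with DMSO and 17.1, 17.7 and 20.6 CPM with THZ1, groups that did not overlap but were not called (0.23 ± 0.11, edgeR adjusted p = 0.159). Annotated antisense transcripts lie opposite 14.4% of its exon bases.

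EIF2AK2 (ENSG00000055332.17, chr2:37099210-37157065, minus strand) encodes PKR. On the TMM scale it was called in BxPC3. In BxPC3 it went from 36.6, 40.6 and 40.7 CPM with DMSO to 34.1, 34.8 and 31.7 CPM with THZ1, without overlap, a fall of 0.23 ± 0.08 on the log2 scale (SE, edgeR adjusted p = 0.0125). That call was lost with DESeq2 (-0.19, adjusted p = 0.0651) and without THZ1 library 3 (-0.19, edgeR adjusted p = 0.0780). Its log2 fold change was -0.02 ± 0.07 in Panc327 (edgeR adjusted p = 0.805) and -0.04 ± 0.07 in SUIT2 (adjusted p = 0.728), with overlapping groups in both. Scaled by library size alone, EIF2AK2 was -0.63 in BxPC3 (edgeR adjusted p = 3.69e-10) and -0.35 in Panc327 (adjusted p = 1.09e-05), called in both.

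EIF2S1 (ENSG00000134001.12, chr14:67359997-67386516, plus strand), the substrate of all 4 kinases, was measured with 714 to 1838 reads per library. It held 176, 164 and 166 CPM with DMSO and 173, 168 and 172 CPM with THZ1 in BxPC3, where the groups overlapped. In Panc327 it held 188, 197 and 195 CPM with DMSO and 180, 186 and 181 CPM with THZ1, and in SUIT2 97.4, 87.2 and 105 CPM with DMSO and 100, 108 and 95.8 CPM with THZ1. The Panc327 groups did not overlap and those of SUIT2 did. The log2 fold changes were 0.017 ± 0.05 (edgeR adjusted p = 0.789), -0.08 ± 0.05 (adjusted p = 0.128) and 0.07 ± 0.06 (adjusted p = 0.469). Taking 1.96 SE on each side, the change lay between -0.08 and 0.12 in BxPC3, between -0.18 and 0.015 in Panc327 and between -0.04 and 0.18 in SUIT2. By library size alone EIF2S1 was -0.38 in BxPC3 (edgeR adjusted p = 3.48e-10) and -0.41 in Panc327 (adjusted p = 1.46e-11), close to the shift of the median gene. Exons of ATP6V1D on the other strand cover 4.76% of its exon bases.

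Among the eIF2B subunits, EIF2B4 (ENSG00000115211.15, chr2:27364352-27370486, minus strand) had the largest THZ1 changes of the 10 members in BxPC3 and Panc327. It encodes the delta subunit, which with alpha and beta forms the regulatory core that binds phosphorylated eIF2. BxPC3 had 24.2, 23.0 and 22.7 CPM with DMSO and 12.3, 13.4 and 12.1 CPM with THZ1. Panc327 had 36.0, 36.8 and 41.6 CPM with DMSO and 18.05, 14.5 and 17.4 CPM with THZ1. The highest THZ1 library was below the lowest DMSO library in both lines.

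EIF2B4 fell by 0.88 ± 0.12 on the log2 scale in BxPC3 (SE, edgeR adjusted p = 6.91e-11) and by 1.19 ± 0.10 in Panc327 (adjusted p = 4.07e-19), to ratios of 0.542 and 0.439. In these lines 19.5% and 16.6% of all genes had a log2 fold change at or below it. In SUIT2 the libraries held 34.1, 34.8 and 32.4 CPM with DMSO and 32.8, 31.4 and 31.6 CPM with THZ1, overlapping, with a log2 fold change of -0.08 ± 0.08 (edgeR adjusted p = 0.587).

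EIF2B5 (ENSG00000145191.13, chr3:184135038-184146112, plus strand) encodes epsilon, the subunit that carries the nucleotide exchange activity. It went from 85.6, 89.4 and 88.4 CPM to 70.8, 73.7 and 72.6 CPM with THZ1 in BxPC3, and from 111, 109 and 116 CPM to 75.3, 87.5 and 81.7 CPM in Panc327. The groups did not overlap in either line. It fell by 0.28 ± 0.06 (SE, edgeR adjusted p = 4.40e-05) and by 0.46 ± 0.06 (adjusted p = 4.76e-11) on the log2 scale, and by library size alone it was -0.67 and -0.79. In SUIT2 its group means were 66.5 ± 2.998 and 66.6 ± 1.47 CPM (SD, n = 3).

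EIF2B1 (ENSG00000111361.12, chr12:123620406-123633766, minus strand), the alpha subunit gene, moved the other way. It was 84.2, 76.1 and 74.2 CPM with DMSO and 105, 113 and 101 CPM with THZ1 in BxPC3, and 83.0, 81.8 and 77.8 CPM against 103, 110 and 91.1 CPM in Panc327. Both lines showed separate groups, with rises of 0.44 ± 0.06 (SE, edgeR adjusted p = 5.47e-10) and 0.32 ± 0.06 (adjusted p = 2.75e-06). By library size alone it was 0.05 in BxPC3 (edgeR adjusted p = 0.496) and -0.0023 in Panc327 (adjusted p = 0.984), so neither rise was called on that scale. Exons of DDX55 on the other strand cover 14.8% of its exon bases. In SUIT2 its means were 70.5 ± 2.51 and 70.6 ± 1.90 CPM (SD, n = 3).

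EIF2B2 (ENSG00000119718.10, chr14:75002911-75012366, plus strand), the beta subunit gene, rose in BxPC3, from 36.0, 36.3 and 38.0 CPM with DMSO to 54.4, 51.6 and 48.3 CPM with THZ1. The groups did not overlap, and the log2 fold change was 0.48 ± 0.08 (SE, edgeR adjusted p = 6.86e-08), or 0.09 by library size alone (adjusted p = 0.330). In Panc327 it held 25.1, 20.6 and 24.4 CPM with DMSO and 20.5, 20.1 and 20.7 CPM with THZ1, and the overlapping groups gave -0.19 ± 0.11 (edgeR adjusted p = 0.0934). It was called there without DMSO library 2 (-0.29, edgeR adjusted p = 0.0180) and by library size alone (-0.52, adjusted p = 8.05e-06). In SUIT2 the change was 0.13 ± 0.08 (edgeR adjusted p = 0.300). An annotated transcript on the other strand covers 20.2% of its exon bases.

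EIF2B3 (ENSG00000070785.16, chr1:44850522-44986722, minus strand), the gamma subunit gene, which pairs with epsilon in the catalytic part, ranged from 27.9 to 38.4 CPM over the 18 libraries. Its DMSO and THZ1 libraries overlapped in all 3 lines. Log2 fold changes were -0.16 ± 0.09 in BxPC3 (SE, edgeR adjusted p = 0.120), -0.05 ± 0.09 in Panc327 (adjusted p = 0.653) and 0.09 ± 0.08 in SUIT2 (adjusted p = 0.498). It was called lower by library size alone in BxPC3 (-0.55, edgeR adjusted p = 1.24e-07) and Panc327 (-0.37, adjusted p = 2.06e-04), and in BxPC3 without DMSO library 2 (-0.22, adjusted p = 0.0413).

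**Figure D2:**
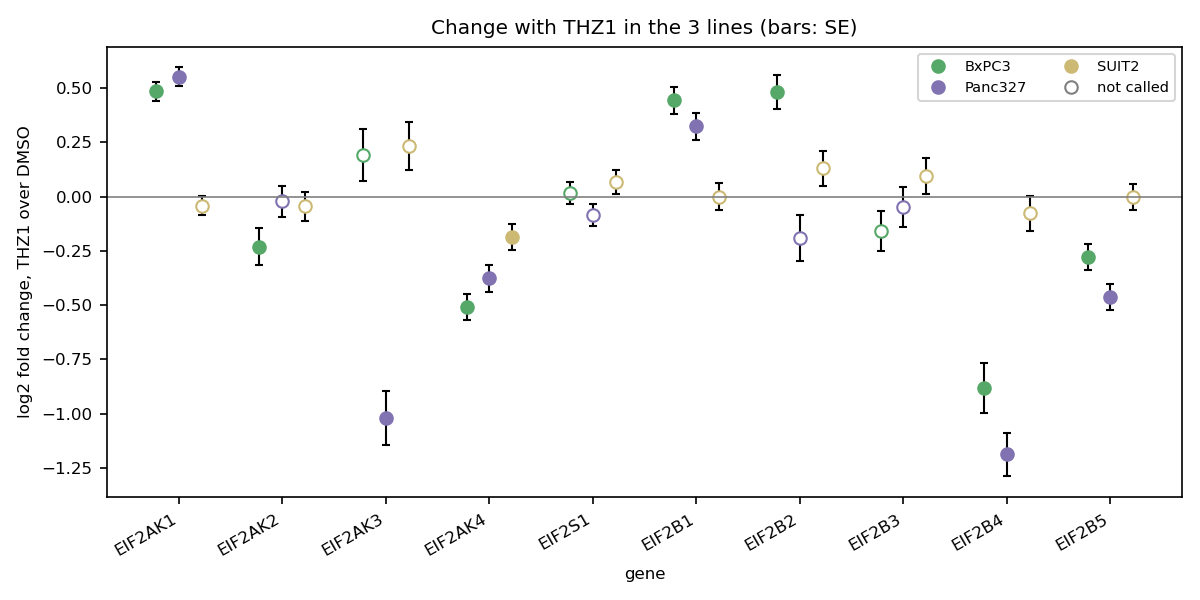
Log2 fold change of THZ1 over DMSO (y axis) for each gene (x axis) in BxPC3 (green), Panc327 (purple) and SUIT2 (yellow). Bars are the SE, filled points are called at an edgeR adjusted p under 0.05 and open points are not; EIF2B4 and, in Panc327, EIF2AK3 lie near or below -0.88, while the SUIT2 points lie between -0.19 and 0.23.

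The difference between lines was tested directly. Between BxPC3 and Panc327, 2 of 10 members differed in their response, both higher in BxPC3 (36.3% of all genes differed, 22.2% higher): EIF2AK3, by 1.21 ± 0.17 on the log2 scale (SE, edgeR adjusted p = 8.58e-09), and EIF2B2, by 0.67 ± 0.13 (adjusted p = 1.36e-05). A fit to these lines alone called 5, with EIF2AK1 (-0.20), EIF2AK2 (-0.35) and EIF2AK4 (-0.27) added. That fit also called more genes, 5740 against 5088. Genes were filtered anew for it, so these counts are of different gene sets, and its share of all genes was not computed. The HRI responses differed by -0.07 ± 0.06 (edgeR adjusted p = 0.434) and those of EIF2B4 by 0.31 ± 0.16 (adjusted p = 0.130), with bounds at 1.96 SE of -0.19 and 0.05 for EIF2AK1 and of -0.0071 and 0.62 for EIF2B4.

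The share of members whose response in SUIT2 differed from another line was near that of all genes. Against BxPC3, 6 of 10 responses differed, 3 higher and 3 lower (54.9% of all genes, 27.3% higher and 27.6% lower), among them EIF2AK1 by 0.53 ± 0.06 (SE, edgeR adjusted p = 5.28e-12), EIF2B4 by -0.81 ± 0.14 (adjusted p = 6.88e-07) and EIF2AK4 by -0.32 ± 0.08 (adjusted p = 5.90e-04). Against Panc327, 7 differed, 2 higher and 5 lower (60.7% of all genes, 28.3% higher and 32.4% lower), among them EIF2AK1 by 0.59 ± 0.06 (edgeR adjusted p = 1.05e-14), EIF2AK3 by -1.25 ± 0.17 (adjusted p = 2.56e-10) and EIF2B4 by -1.11 ± 0.13 (adjusted p = 2.98e-12). The GCN2 difference between Panc327 and SUIT2 was at the threshold, -0.19 ± 0.09 (edgeR adjusted p = 0.0498), and was lost without any 1 of 8 of the 12 libraries, with adjusted p up to 0.133. It held in 7 of 19 settings, and was also lost with RLE scaling (-0.07, edgeR adjusted p = 0.516), with DESeq2 (-0.07, adjusted p = 0.558), with only the lines compared (-0.19, edgeR adjusted p = 0.0586) and with the replicate block (-0.19, adjusted p = 0.0626). That of EIF2B2, -0.32 ± 0.13 (edgeR adjusted p = 0.0293), was lost without any 1 of 7 libraries, with adjusted p up to 0.0957. It was also lost with RLE scaling (-0.20, edgeR adjusted p = 0.191) and DESeq2 (-0.20, adjusted p = 0.254). These 2 settings each called 5 members, beside 8583 and 8210 genes (8507 in the main fit). The 3 tests share groups and are not independent. By library size alone the share of all called differences that were higher went from 61.1% to 50.8% for BxPC3 minus Panc327 (49.6% with RLE scaling), from 49.7% to 22.8% for BxPC3 minus SUIT2 and from 46.7% to 28.1% for Panc327 minus SUIT2.

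A ratio to EIF2S1 within each library does not depend on how libraries were scaled. In BxPC3, 7 of 9 members had DMSO and THZ1 ratios that did not overlap (72.4% of all genes), in Panc327 6 of 9 (76.1%) and in SUIT2 1 of 9 (17.5%). The log2 ratio of EIF2AK1 to EIF2S1 counts went from 0.10 ± 0.05 to 0.57 ± 0.03 in BxPC3 and from 0.32 ± 0.03 to 0.95 ± 0.04 in Panc327 (SD, n = 3). That of EIF2B4 went from -2.86 ± 0.02 to -3.75 ± 0.10 in BxPC3 and from -2.34 ± 0.10 to -3.46 ± 0.19 in Panc327. In SUIT2, the separate ratio was that of EIF2AK4, -0.14 ± 0.10 with DMSO and -0.40 ± 0.12 with THZ1. Leaving out SUIT2 DMSO library 3, THZ1 library 2 or THZ1 library 3 gave 5, 2 or 3 separate ratios of 9. Groups with fewer libraries separate more easily, and the share of all genes was not computed for these cases. For 3 against 3 libraries the exact two-sided permutation p cannot go below 0.1, and over the 27 ratios tested the smallest adjusted p was 0.193.

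**Figure D3:**
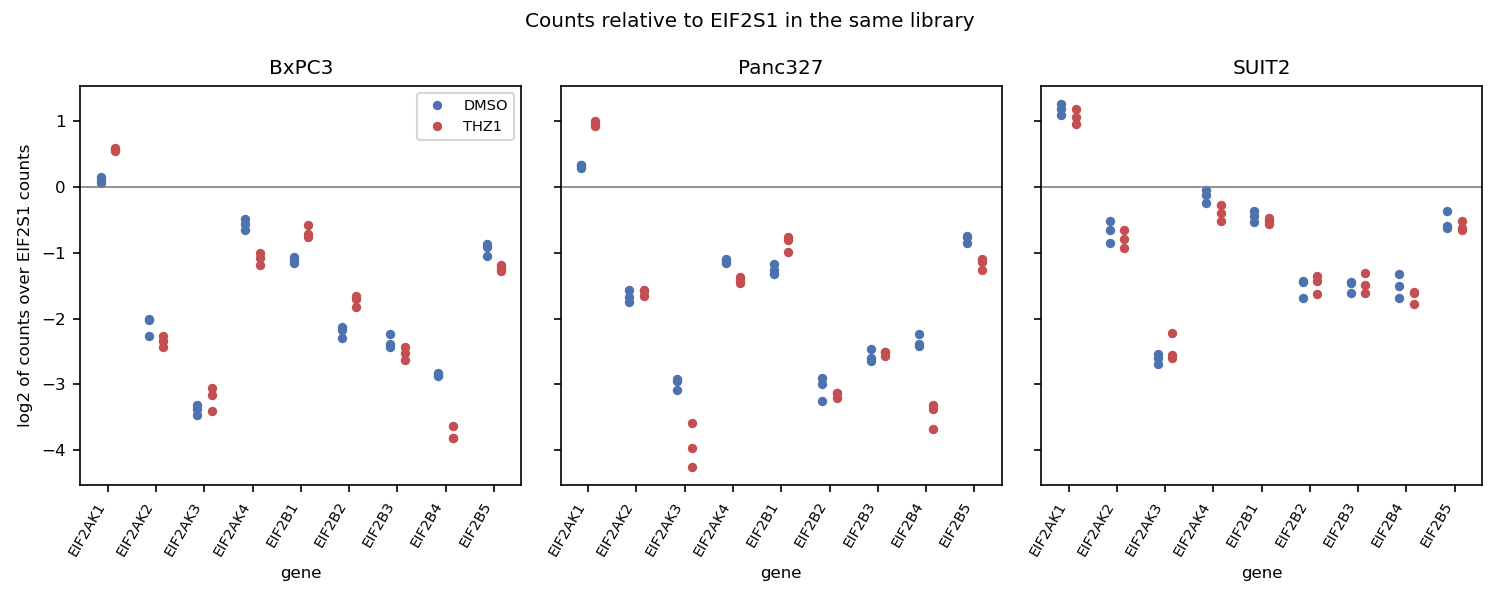
Log2 ratio of each gene's counts to EIF2S1 counts in the same library (y axis, pseudocount 0.5) for 9 genes (x axis) in the 3 lines. Points are libraries, blue for DMSO and red for THZ1; in BxPC3 and Panc327 EIF2AK1 and EIF2B1 shift up and EIF2AK4, EIF2B4 and EIF2B5 shift down, and in SUIT2 EIF2AK4 is the gene whose groups are separate.

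Levels of different genes were compared per kilobase of merged exons. HRI was the most abundant kinase mRNA in all 6 groups, at 32.6 ± 0.987 CPM per kb in BxPC3, 43.4 ± 0.984 in Panc327 and 39.1 ± 1.48 in SUIT2 with DMSO (SD, n = 3). GCN2 followed at 9.52 ± 0.199, 7.44 ± 0.347 and 7.29 ± 0.223 CPM per kb, and PERK was the lowest of the kinases with DMSO at 2.97 ± 0.098, 4.51 ± 0.202 and 2.90 ± 0.219 CPM per kb. With DMSO, HRI made up 66.9%, 71.1% and 71.3% of the summed kinase level per kb.

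With THZ1, the HRI share of the kinase sum was 77.5% in BxPC3 and 82.5% in Panc327, against 71.4% in SUIT2. The PERK share in Panc327 was 7.39% with DMSO and 2.88% with THZ1, and the GCN2 share in BxPC3 was 19.5% and 11.4%. Shares within a class are tied, so a larger HRI share lowers the others. The PKR share in Panc327 was 9.30% with DMSO and 7.23% with THZ1, though PKR mRNA was not called as changed there. Within eIF2B, the EIF2B1 share was 39.5% and 48.9% in BxPC3 and 37.9% and 50.4% in Panc327, while the EIF2B4 share was 7.98% and 3.94%, and 12.1% and 5.65%. In SUIT2 the EIF2B1 share was 38.0% with DMSO and 37.4% with THZ1, the PERK share 5.28% and 6.39%, and the GCN2 share 13.3% and 12.04%. The libraries did not overlap for the BxPC3 and Panc327 shares named here nor for PERK and GCN2 in SUIT2, each at the smallest exact permutation p of 0.1 (adjusted p 0.159 over 27 shares). These shares were chosen after the data were seen.

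The size of a share depends on the length used. With the longest protein-coding transcript in place of merged exons, HRI was still first among the kinases in all 6 groups, with shares of 59.0%, 66.2% and 65.8% with DMSO. EIF2B5 was above EIF2B1 in BxPC3 and Panc327 with DMSO on that measure, at 33.0 against 31.6 and 42.2 against 32.7 CPM per kb, and below it with merged exons.

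**Figure D4:**
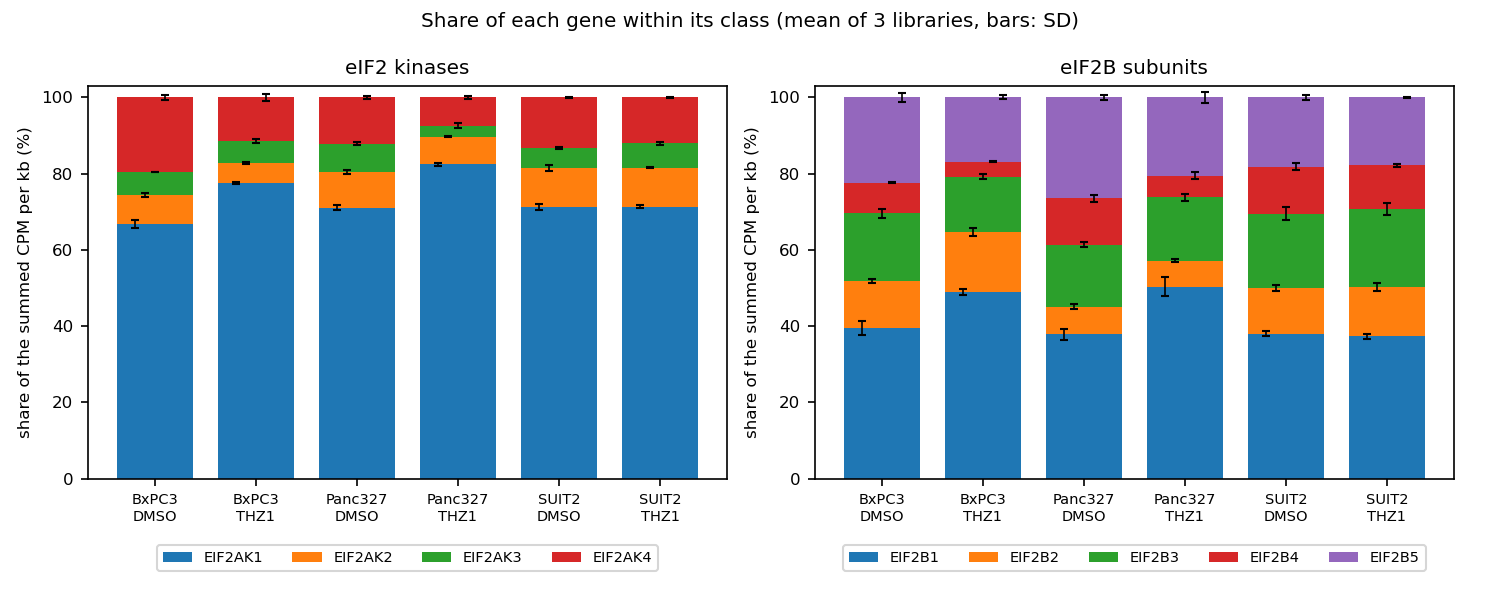
Share of each gene in the summed CPM per kb of merged exons of its class (y axis, percent), for the 4 kinases (left) and the 5 eIF2B subunits (right) in each group (x axis). Bars stack the means of 3 libraries and error bars are the SD of each share; the EIF2AK1 share is 66.9% and 77.5% in BxPC3 and 71.1% and 82.5% in Panc327, with DMSO and THZ1.

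Members differed between untreated lines at about the rate of all genes. With DMSO, 8 of 10 members differed between BxPC3 and Panc327, 2 higher and 6 lower in BxPC3 (79.3% of all genes, 38.6% higher and 40.7% lower). Between BxPC3 and SUIT2 7 differed, 4 higher and 3 lower in BxPC3 (78.6%, 38.9% and 39.7%). Between Panc327 and SUIT2 7 differed, 6 higher and 1 lower in Panc327 (82.5%, 42.9% and 39.6%). The libraries did not overlap for 8, 8 and 7 members (79.8%, 78.8% and 82.8% of all genes). HRI was highest in Panc327 (241 ± 5.46 CPM), then SUIT2 (217 ± 8.20) and BxPC3 (181 ± 5.48; SD, n = 3), and each neighbouring step was called. PERK was higher in Panc327 (24.5 ± 1.10 CPM) than in BxPC3 (16.1 ± 0.535) and SUIT2 (15.8 ± 1.19), where the difference was not called (0.03, edgeR adjusted p = 0.805). GCN2 was higher in BxPC3 (114 ± 2.38 CPM) than in Panc327 (88.9 ± 4.15) and SUIT2 (87.2 ± 2.67), where the difference was not called (0.03, edgeR adjusted p = 0.657). PKR was lower in BxPC3 (39.3 ± 2.31 CPM) than in Panc327 (61.0 ± 2.44) and SUIT2 (60.2 ± 6.45), where the difference was not called (0.019, edgeR adjusted p = 0.792).

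EIF2S1 was the member with the largest difference between lines. It was 194 ± 4.68 CPM in Panc327, 169 ± 6.67 in BxPC3 and 96.4 ± 8.72 in SUIT2 with DMSO (SD, n = 3), a log2 difference of 1.004 ± 0.05 between Panc327 and SUIT2 (SE, edgeR adjusted p = 8.00e-33). The genes of its partners in the eIF2 trimer had the opposite order. EIF2S2 (beta) was 205 ± 7.40 CPM in Panc327, 270 ± 8.08 in BxPC3 and 323 ± 12.9 in SUIT2, and EIF2S3 (gamma) was 149 ± 3.34, 220 ± 7.08 and 350 ± 9.72 CPM. Panc327 minus SUIT2 was -0.66 ± 0.04 for EIF2S2 (SE, edgeR adjusted p = 3.49e-26) and -1.23 ± 0.04 for EIF2S3 (adjusted p = 7.99e-45). These partners were named after their values were seen.

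Of the eIF2B genes, EIF2B5 was 112 ± 3.62 CPM in Panc327, 87.8 ± 1.97 in BxPC3 and 66.5 ± 2.998 in SUIT2 with DMSO (SD, n = 3), each step called. EIF2B4 was 38.1 ± 3.02, 23.3 ± 0.827 and 33.8 ± 1.25 CPM in the same order of lines. The Panc327 and SUIT2 values of EIF2B4 differed by 0.18 (edgeR adjusted p = 0.0312), a call lost without Panc327 DMSO library 3 (0.11, adjusted p = 0.252), SUIT2 DMSO library 1 (0.18, adjusted p = 0.0522) or SUIT2 DMSO library 3 (0.14, adjusted p = 0.145). EIF2B2 was 36.8 ± 1.09 CPM in BxPC3 and 33.5 ± 1.93 in SUIT2, where the difference was not called (0.14, edgeR adjusted p = 0.106), and lower in Panc327 at 23.4 ± 2.43. EIF2B1 was 80.9 ± 2.72 CPM in Panc327 and 78.2 ± 5.30 in BxPC3, where the difference was not called (-0.05, edgeR adjusted p = 0.443), and 70.5 ± 2.51 in SUIT2. The step from BxPC3 to SUIT2 in EIF2B1 (0.15, edgeR adjusted p = 0.0254) was lost without BxPC3 DMSO library 1 (0.09, adjusted p = 0.221) or SUIT2 DMSO library 2 (0.12, adjusted p = 0.116). EIF2B3, at 32.6 to 33.9 CPM, was not called as different in any pair of lines.

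PKR was set beside the other sensors of double-stranded RNA, most of them interferon-induced like PKR. With DMSO, 8 of 9 tested sensors were higher in BxPC3 than in Panc327 (38.6% of all genes) and ADAR was lower. PKR was lower in BxPC3, by 0.63 ± 0.07 on the log2 scale (SE, edgeR adjusted p = 9.10e-14). OASL, a 2′-5′-oligoadenylate synthetase relative, was 147 ± 6.71 CPM in BxPC3, 2.97 ± 0.794 in Panc327 and 35.0 ± 0.630 in SUIT2 (SD, n = 3). OAS1 was 25.6 ± 1.90, 0.437 ± 0.116 and 32.1 ± 0.855 CPM, and OAS2 was 66.7 ± 2.39, 2.51 ± 0.195 and 11.5 ± 1.84 CPM. Of the same 9, 8 were lower in Panc327 than in SUIT2 (39.6% of all genes), where PKR was not called as different. The sensor levels of Panc327 were thus the lowest of the lines while its PKR level was not, except for ADAR, which was lowest in BxPC3. OAS1 and OAS2 were named after their values were seen.

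**Figure D5:**
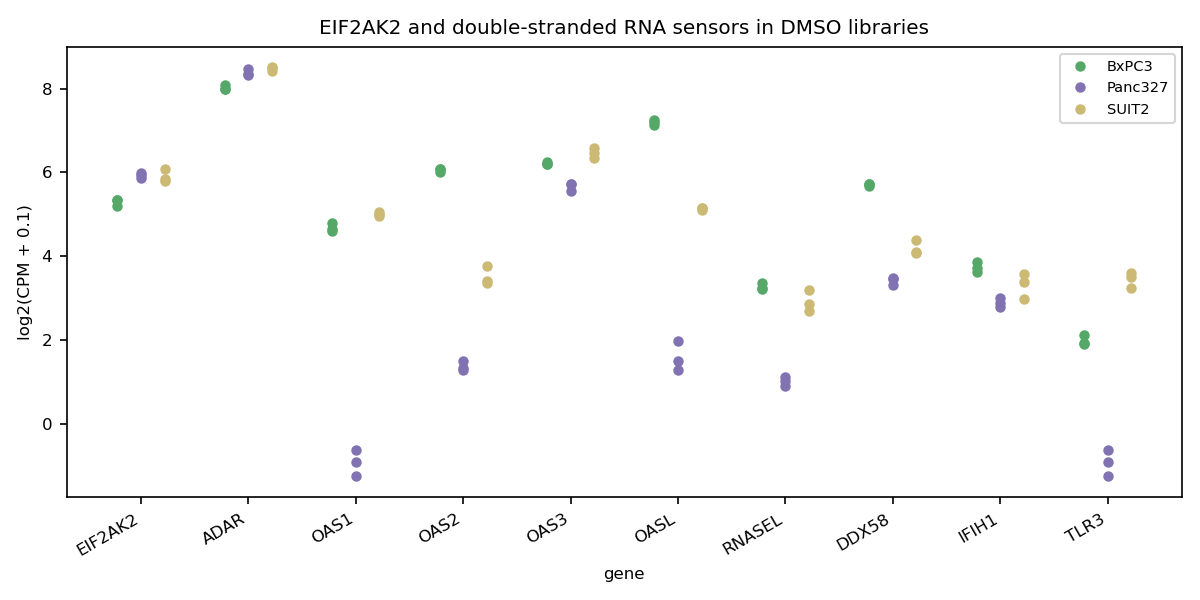
DMSO levels of EIF2AK2 and 9 other sensors of double-stranded RNA (x axis) as log2 of CPM plus 0.1 (y axis), with 1 point per library in BxPC3 (green), Panc327 (purple) and SUIT2 (yellow). OAS1, OAS2, OASL and TLR3 lie far lower in Panc327 than in the other lines, while EIF2AK2 is lowest in BxPC3, at 39.3 CPM against 61.0 and 60.2 CPM.

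With THZ1 in BxPC3, 2 of the 9 sensors rose and 6 fell (median -0.65), beside 35.2% and 34.1% of all genes. In Panc327, 1 rose and 4 fell (median -0.59), beside 35.6% and 37.8%. SUIT2 had 0 rises and 2 falls (median -0.09), beside 6.95% and 7.64%. DDX58, which encodes the RNA helicase RIG-I, fell by 1.46 ± 0.09 in BxPC3 (SE, edgeR adjusted p = 4.53e-26) and by 1.15 ± 0.18 in Panc327 (adjusted p = 1.20e-08) on the log2 scale. OASL fell by 1.22 ± 0.06 and by 1.53 ± 0.34 (edgeR adjusted p = 7.24e-33 and 4.14e-05). The OASL fall in Panc327 rested on few reads, 21 to 36 per library with DMSO and 5 to 6 with THZ1. IFIH1, which encodes MDA5, fell by 0.65 ± 0.15 in BxPC3 (edgeR adjusted p = 7.81e-05) and was -0.39 ± 0.19 in Panc327 (adjusted p = 0.0569).

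The lists that follow are on the TMM scale, on which 6.95% of all genes rose and 7.64% fell in SUIT2. On the same scale 35.2% rose and 34.1% fell in BxPC3, and 35.6% rose and 37.8% fell in Panc327. The median gene, by library size alone, shifted by -0.35 and -0.34 in these lines, more than the size of any positive list median given for them. Genes that act on the kinases moved in both directions. Of 10 regulators, 6 rose and 2 fell in BxPC3 (median 0.28), 6 rose and 3 fell in Panc327 (median 0.13), and 1 rose and 2 fell in SUIT2 (median 0.05). DNAJC3, whose product P58IPK inhibits PKR and PERK, rose by 1.09 ± 0.05, 0.77 ± 0.06 and 0.16 ± 0.06 in BxPC3, Panc327 and SUIT2 (SE, edgeR adjusted p = 2.46e-33, 1.43e-20 and 0.0446). IMPACT, an inhibitor of GCN2 activation, rose by 0.62 ± 0.10 and 0.67 ± 0.08 in BxPC3 and Panc327 (edgeR adjusted p = 1.55e-08 and 3.32e-12) and was -0.11 ± 0.10 in SUIT2 (adjusted p = 0.546). NCK1, an adaptor protein that binds PERK and eIF2, fell by 0.36 ± 0.09 and 0.93 ± 0.13 (edgeR adjusted p = 2.97e-04 and 4.87e-10).

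The phosphatase that reverses the kinases also changed unevenly: of its 5 genes, 2 rose and 3 fell in both BxPC3 and Panc327 (medians -0.33 and -0.38), and 1 rose in SUIT2 (median -0.029). The catalytic subunit genes moved both ways: PPP1CA and PPP1CB rose and PPP1CC fell. PPP1CA rose by 0.84 ± 0.04 in BxPC3 and 0.82 ± 0.05 in Panc327 (SE, edgeR adjusted p = 1.29e-31 and 5.07e-30). PPP1CB rose by 0.77 ± 0.05 and 0.54 ± 0.05 (edgeR adjusted p = 1.44e-23 and 3.32e-16). The stress-induced targeting subunit gene PPP1R15A (GADD34) went from 102 ± 1.58 to 47.1 ± 1.66 CPM in BxPC3 and from 49.3 ± 2.38 to 23.9 ± 1.77 CPM in Panc327 (SD, n = 3).

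A list of 11 genes held the other eIF2 subunits and further factors linked to initiation. Of these, 8 rose and 1 fell in BxPC3 (median 0.28), 5 and 1 in Panc327 (median 0.04), and 0 and 4 in SUIT2 (median -0.03). EIF5, the GTPase-activating partner of eIF2, fell in all 3 lines, by 0.82 ± 0.04, 0.80 ± 0.04 and 0.17 ± 0.04 (SE, edgeR adjusted p = 1.16e-32, 1.17e-31 and 0.00159). EIF2D, which can deliver initiator tRNA without eIF2, rose by 0.55 ± 0.08 in BxPC3 and 0.86 ± 0.07 in Panc327 (edgeR adjusted p = 2.61e-09 and 2.32e-19). EIF1AX, a scanning factor, rose by 0.51 ± 0.05 and 0.29 ± 0.06 in the same lines (edgeR adjusted p = 2.41e-15 and 2.04e-06).

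Among 12 tested eIF3 subunit genes, 10 rose and 1 fell in BxPC3 (median 0.34), 8 rose and 2 fell in Panc327 (median 0.27), and 0 rose and 1 fell in SUIT2 (median 0.026). EIF3K rose by 0.59 ± 0.05 and 0.95 ± 0.04 in BxPC3 and Panc327 (SE, edgeR adjusted p = 6.93e-21 and 4.06e-38). EIF3I, a subunit of the same scaffold that brings ribosomes to mRNA, rose by 0.79 ± 0.04 and 0.85 ± 0.04 in BxPC3 and Panc327 (SE, edgeR adjusted p = 2.99e-32 and 7.01e-34). Of 9 tested eIF4F genes, 4 rose and 5 fell in BxPC3, 5 rose and 4 fell in Panc327, and 0 rose and 1 fell in SUIT2. EIF4E, which encodes the cap-binding protein, fell by 0.27 ± 0.07 and 1.005 ± 0.08 in BxPC3 and Panc327 (edgeR adjusted p = 2.29e-04 and 4.11e-20), while EIF4EBP1, its repressor, rose by 0.81 ± 0.07 and 1.13 ± 0.07 (adjusted p = 3.35e-18 and 1.44e-27). EIF4A2, an RNA helicase of the complex, fell by 0.41 ± 0.05, 0.85 ± 0.05 and 0.42 ± 0.05 in BxPC3, Panc327 and SUIT2 (edgeR adjusted p = 3.93e-11, 1.02e-29 and 1.88e-10). ATF4 and 9 of its targets gave 6 rises and 3 falls in BxPC3 (median 0.35), 3 and 5 in Panc327 (median -0.27), and 1 and 2 in SUIT2 (median 0.07). SESN2, which encodes an inhibitor of mTORC1 signalling, fell by 2.36 ± 0.17 in Panc327 and rose by 0.30 ± 0.12 in BxPC3 (SE, edgeR adjusted p = 2.40e-22 and 0.0175). TRIB3, a pseudokinase that restrains ATF4, fell by 1.04 ± 0.11 in BxPC3 and fell by 1.496 ± 0.09 in Panc327 (edgeR adjusted p = 6.60e-14 and 8.93e-29). Of the same list, ASNS, asparagine synthetase, rose by 0.98 ± 0.08 and 0.97 ± 0.06 in BxPC3 and Panc327 (edgeR adjusted p = 7.08e-21 and 2.90e-25).

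Finally, the genes whose pattern over the 6 group means was most like each kinase were found among 9414 genes, by the root mean square difference of centred log2 means. ARRB2 (0.053) and ERI3 (0.062) were nearest to EIF2AK1, for which the median gene was at 0.63. MARS (0.060) and GLTSCR2 (0.064) were nearest to EIF2AK2, LINC01128 (0.089) and FAM104A (0.092) to EIF2AK3, and RRNAD1 (0.058) and UPF3B (0.085) to EIF2AK4. EIF2S1 was most like MAP2K3 (0.072) and RBM42 (0.077), and the mean of the 5 eIF2B genes most like XPO1 (0.039) and MRPL1 (0.049). This is a description over 6 points per gene that share libraries. Among the members themselves, EIF2AK1 and EIF2B1 had the most similar pattern of the 45 pairs (0.21), and EIF2S1 and EIF2B4 the least (0.84).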

How the data were processed

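The deposited tables list, for each of 18 libraries, the raw count of reads on every gene symbol. Per the submitters' processing notes, the authors' tools included bcl2fastq (1.8.4), TopHat2 (2.1.0) and HTSeq (0.6.1), with build hg38. Which annotation, strand setting and counting mode were used is not given. The 5 summary entries (21.3% to 64.6% of records) were kept out of library sizes and tests.

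The model was fitted in edgeR 4.0.16 under R 4.3.3: filterByExpr (minimum count 10, minimum total 15), TMM scaling, 6 group means over 18 libraries (12 residual degrees of freedom), and robust quasi-likelihood tests with Benjamini-Hochberg adjustment over 14011 genes. Each SE is approximate, taken from the F statistic and the size of the change. DESeq2 1.42.0, limma 3.58.1, other scalings, no filter, a fit to only the lines compared, a replicate block and leaving out each library were alternatives. The steps were tested on simulated data in which a small part of the genes changed. Such data do not test TMM scaling where most genes are called. Figures used Python 3.11.15 and matplotlib 3.10.9.

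Replicate numbers were not treated as pairs. No libraries of a group were duplicates: the chi-square per gene between them was 1.25 to 2.52, where sampling noise alone gives about 1.

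Members and lists were chosen with earlier results of these data known. All members are named. Of other genes, up to 3 per list are named: those called with the largest THZ1 change in any line and averaging 10 CPM or more in a group compared. The motifs, class shares, named eIF2 partners, OAS genes, PPP1CC and PPP1R15B were chosen after values were seen. The promoter search was widened from the 250 bases before the start to all 300 after 2 motifs had been noticed there. A window is printed where such a motif lies within 11 bases of the start. Positions and lengths are from GENCODE 29 (GRCh38) and promoter letters from RefSeq (GRCh38.p14), where EIF2AK1 had no match; protein sequences were not used here.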

Additional observations from a re-analysis of the deposited data

Results flagged for a closer look

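The responses of some members to THZ1 differed between lines by the test of the difference itself (edgeR, adjusted p under 0.05). BxPC3 minus Panc327 was 1.21 for EIF2AK3 and 0.67 for EIF2B2. BxPC3 minus SUIT2 was 0.53 for EIF2AK1, -0.32 for EIF2AK4, 0.44 for EIF2B1, 0.35 for EIF2B2, -0.81 for EIF2B4 and -0.28 for EIF2B5. Panc327 minus SUIT2 was 0.59 for EIF2AK1, -1.25 for EIF2AK3, -0.19 for EIF2AK4, 0.32 for EIF2B1, -0.32 for EIF2B2, -1.11 for EIF2B4 and -0.46 for EIF2B5. All are log2 differences. Of the Panc327 minus SUIT2 calls, that of EIF2AK4 held in 7 of 19 settings and that of EIF2B2 in 10 of 19. The EIF2B2 value of BxPC3 minus SUIT2 held in 18 of 19 and was -0.027 by library size alone.

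Outside the gene counts, the mean share of records aligned to several places was 22.8% in BxPC3 and 52.8% in Panc327 with THZ1, above the 14.1% that was the highest of the DMSO libraries.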

How the results depend on the processing

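Of 51 member differences called, 38 kept their direction and call in every setting tried. Leaving out 1 library gave 0 to 1 members called in SUIT2 and 1353 to 1625 genes called there (2044 with all libraries, 1348 with DESeq2). It also gave 1 to 5 separate ratios to EIF2S1 in SUIT2, for which the share of all genes was not computed. With only the lines compared, 5 members and 5740 genes differed between BxPC3 and Panc327 (2 and 5088 in the main fit). That fit filtered genes anew, and its share of all genes was not computed.

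The following log2 values changed sign; the cause was not tested. By library size alone, EIF2AK3 and EIF2S1 in BxPC3 were -0.20 and -0.38, EIF2B1 in Panc327 and SUIT2 -0.0023 and -0.016, the EIF2B2 response of BxPC3 minus SUIT2 -0.027 and the EIF2AK2 response of Panc327 minus SUIT2 -0.29; with DMSO, EIF2AK3 of BxPC3 minus SUIT2 was -0.019, and EIF2AK2 and EIF2AK4 of Panc327 minus SUIT2 -0.020 and -0.012. With no filter, EIF2S1 in BxPC3 was -0.015, EIF2B1 in SUIT2 -0.0048 and the EIF2AK2 response of Panc327 minus SUIT2 -0.028. With RLE factors and with DESeq2, EIF2AK2, EIF2S1 and EIF2B3 in Panc327 were 0.096, 0.033 and 0.069, and 0.096, 0.034 and 0.069, EIF2B1 in SUIT2 -0.0049 and -0.0046, and the EIF2AK3 response of BxPC3 minus SUIT2 0.0078 and 0.0087. With only the lines compared, EIF2S1 in BxPC3 was -0.030, EIF2B1 in SUIT2 -0.0089, and the EIF2S1 and EIF2B1 responses of BxPC3 minus Panc327 -0.035 and -0.016.

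Leaving out 1 library, THZ1 changes ran from -0.0047 to 0.048 for EIF2S1 in BxPC3, from -0.060 to 0.0069 for EIF2AK2 in Panc327, and in SUIT2 from -0.10 to 0.043 for EIF2AK2, -0.00011 to 0.13 for EIF2S1, -0.030 to 0.015 for EIF2B1 and -0.037 to 0.025 for EIF2B5. Response differences ran from -0.12 to 0.057 (EIF2AK3) and -0.11 to 0.016 (EIF2S1) for BxPC3 minus SUIT2 and from -0.068 to 0.076 (EIF2AK2) for Panc327 minus SUIT2. DMSO differences ran from -0.025 to 0.087 (EIF2B3) for BxPC3 minus Panc327, from -0.029 to 0.069 (EIF2AK3) and -0.094 to 0.059 (EIF2B3) for BxPC3 minus SUIT2, and from -0.041 to 0.10 (EIF2AK2), -0.0071 to 0.059 (EIF2AK4) and -0.12 to 0.035 (EIF2B3) for Panc327 minus SUIT2.

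Same-numbered libraries correlated at -0.25 to 0.09 in their deviations. Differently numbered ones ran from -0.10 (BxPC3 DMSO 2 with THZ1 1) to 0.23 (SUIT2 DMSO 2 with THZ1 1), with SUIT2 DMSO 1 and THZ1 2 at 0.21. What SUIT2 libraries of different numbers share was not tested. The labels do not say that the numbers mark pairs, and they were not taken as pairs. With the replicate block, 9636 genes were called in BxPC3 against 9722, EIF2B5 in SUIT2 was 0.00022, and the EIF2AK4 response of Panc327 minus SUIT2 was -0.19 (edgeR adjusted p = 0.0626). Depth limits EIF2AK3, EIF2B4 and EIF2B2 most, with as few as 47, 69 and 97 reads in a library.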
